A study of Mus musculus with 8 samples.

Results

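The genes described here are the 6 members of one regulatory circuit of helix-loop-helix proteins, the inhibitors Id1, Id2 and Id3 and the E proteins Tcf3, Tcf4 and Tcf12, among 21757 protein-coding genes with a canonical start site in the GENCODE annotation of the mouse genome GRCm39. They were followed in H3K27ac HiChIP, which joins DNA ends that touch in the nucleus and keeps those carrying the acetylated histone of active promoters and enhancers. The cells were HPC-7, a mouse haematopoietic progenitor line with very little CEBPA of its own, transduced to express either p42, the full-length CEBPA protein, or p30, the shorter form that lacks the N-terminal activation domains. Each isoform was studied untreated (UT) or after 2 h with LPS, a bacterial cell wall component, at 100 ng/mL. The study made retroviral HPC-7 lines of both kinds, with a constitutive isoform or with one fused to ERT2, which enters the nucleus mainly after 4-OHT is added. The paper describes its main p42 and p30 HPC-7 lines as ERT2 fusions, which received 4-OHT ahead of experiments. It reports the constitutive lines for a repeat of the RNA-seq. Its HiChIP methods and the labels name neither the kind of line nor 4-OHT. UT therefore means only without LPS, and 4-OHT may have been present in all groups. This gave 4 groups of 2 libraries each, 8 libraries in all. Where 4 values follow each other without names, they stand for p30 without LPS, p30 with LPS, p42 without LPS and p42 with LPS. All groups came from one cell line and all carried an introduced CEBPA isoform, and no group without one was analysed here. The authors pooled both libraries of a group before calling loops, so each group is one list with no replicate error, and no difference between lists given here was tested against the spread between cultures. A loop was counted for a gene when 1 of its 5 kb bins held the start site of the gene's canonical transcript, and such a loop is called a promoter loop. By this rule the 6 genes had 24 of 80489 listed loops in untreated p30 cells, 21 of 94609 in p30 cells with LPS, 41 of 158233 in untreated p42 cells and 16 of 78591 in p42 cells with LPS.

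E proteins are basic helix-loop-helix transcription factors that bind E-boxes, short DNA sequences of the form CANNTG, as pairs with each other or with tissue-restricted partners such as TAL1 and LYL1. ID proteins share the helix-loop-helix but lack the basic region that touches DNA, so an E protein paired with an ID protein cannot bind. In blood the balance between both groups is known for setting lymphoid against myeloid fate and for holding progenitors in an undifferentiated state.

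The sequences directly upstream of the start sites are given for the genes whose promoters carried loops in every list, together with that of the Id1 start site inside a partner bin found in the p42 lists, and that of the most upstream Tcf12 start site, which carried loops where the canonical one mostly did not. Each run holds the 250 bases before a start site, read from GRCm39 in the direction of transcription. Capitals mark letters of CANNTG, the E-box, of TTGCNNAA, a C/EBP-type pattern, and of TGANTCA, an AP-1-type pattern, each searched on both strands. Overlapping matches share their capitals.
Id1 canonical start, chr2:152577915-152578164, plus strand: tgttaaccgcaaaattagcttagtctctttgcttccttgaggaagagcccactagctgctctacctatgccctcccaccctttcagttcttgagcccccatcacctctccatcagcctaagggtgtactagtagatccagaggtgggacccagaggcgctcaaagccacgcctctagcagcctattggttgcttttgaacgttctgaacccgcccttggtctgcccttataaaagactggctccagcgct
Id1 upstream start, chr2:152565968-152566217, plus strand: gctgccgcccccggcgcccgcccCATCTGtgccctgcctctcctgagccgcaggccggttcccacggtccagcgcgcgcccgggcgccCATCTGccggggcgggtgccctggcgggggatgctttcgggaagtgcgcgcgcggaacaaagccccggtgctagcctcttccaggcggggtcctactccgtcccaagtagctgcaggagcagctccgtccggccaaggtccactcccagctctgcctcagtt
Id2 canonical start, chr12:25147283-25147532, minus strand: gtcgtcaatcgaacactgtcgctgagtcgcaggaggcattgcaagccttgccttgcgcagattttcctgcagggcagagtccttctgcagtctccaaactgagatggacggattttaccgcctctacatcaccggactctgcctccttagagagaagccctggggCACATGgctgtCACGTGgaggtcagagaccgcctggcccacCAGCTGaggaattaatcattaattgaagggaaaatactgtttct
Tcf3 canonical start, chr10:80269578-80269827, minus strand: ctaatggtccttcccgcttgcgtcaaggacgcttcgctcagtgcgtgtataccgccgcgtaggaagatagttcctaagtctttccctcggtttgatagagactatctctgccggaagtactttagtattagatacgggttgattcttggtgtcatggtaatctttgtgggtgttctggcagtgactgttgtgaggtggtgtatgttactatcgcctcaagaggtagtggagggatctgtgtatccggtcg
Tcf12 upstream start, chr9:72019178-72019427, minus strand: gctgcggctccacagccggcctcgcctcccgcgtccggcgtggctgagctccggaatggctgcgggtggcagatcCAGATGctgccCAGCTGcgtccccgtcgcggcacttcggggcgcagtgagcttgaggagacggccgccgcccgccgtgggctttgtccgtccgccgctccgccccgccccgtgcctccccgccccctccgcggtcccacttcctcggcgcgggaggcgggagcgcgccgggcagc
The last 17 bases of the Tcf3 run lie in an exon of another Tcf3 transcript. The E-box letters occurred 0 times before the canonical Id1 and Tcf3 start sites, 3 times before that of Id2 and 2 times before each of the upstream Id1 and Tcf12 start sites. Windows of the same length held the E-box letters at 64.8% of the 21757 promoters, the C/EBP letters at 9.34% and the AP-1 letters at 6.18%. The C/EBP and AP-1 letters matched 0 times in the windows printed. The windows of Id3 and of the canonical Tcf12 start site held 0 and 3 E-box matches, and the latter also 1 AP-1 match. GC content was 52.8% before the canonical Id1 start site and 72.8% before the upstream one, and 77.6% before the upstream Tcf12 start site.

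The lists differed in length more than in depth. The caller modelled 17976716, 14503330, 18999991 and 15831583 contacts in the 4 groups, so the longest list, p42 UT, had 2.01 times as many loops as the shortest with 1.20 times its contacts. For this reason counts are given for the deposited lists and for lists of equal length, in which the 78591 loops with the smallest q-values were kept from each. All 10 haematopoietic progenitor markers examined, Kit, Gata2 and Lmo2 among them, had promoter loops in all 4 lists, and 0 of 4 T cell markers had one in any. Of the other markers, 2 of 3 for B cells, 1 of 3 for erythroid cells and 1 of 4 for other tissues had a loop in some list.

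Tcf3 and Id1 held most of the loops of the 6 genes. Tcf3, which encodes the E proteins E12 and E47, had 14 and 12 promoter loops in p30 cells without and with LPS, and 16 and 7 in p42 cells. Id1 had 8, 5, 16 and 8 in the same order. Id2, the inhibitor needed for innate lymphoid cells, had 2, 2, 4 and 1. Tcf4, which encodes the E2-2 protein of plasmacytoid dendritic cells, had 0, 2, 4 and 0. Tcf12, which encodes HEB, had 1 in p42 UT and 0 elsewhere. Id3 had 0 in every list. The p42 UT list, the longest, had the most loops for each gene that had any, as it had more than p30 UT for 81.9% of all genes with a loop in either and more than p42 LPS for 87.3%. Among the genes with any promoter loop, the share with fewer than Tcf3 was 95.9%, 89.9%, 90.2% and 79.5%. For Id1 these shares were 83.6%, 60.7%, 90.2% and 83.8%, and for Id2 they were 27.6%, 24.2%, 39.0% and 0%. In lists of equal length Id1 had 8, 4, 10 and 8 loops, Tcf3 had 14, 11, 11 and 7, Id2 had 2, 1, 2 and 1 and Tcf4 had 0, 1, 3 and 0, so that p42 UT was highest for Id1 and Tcf4, p30 UT for Tcf3, and both tied for Id2.

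**Figure D1:**
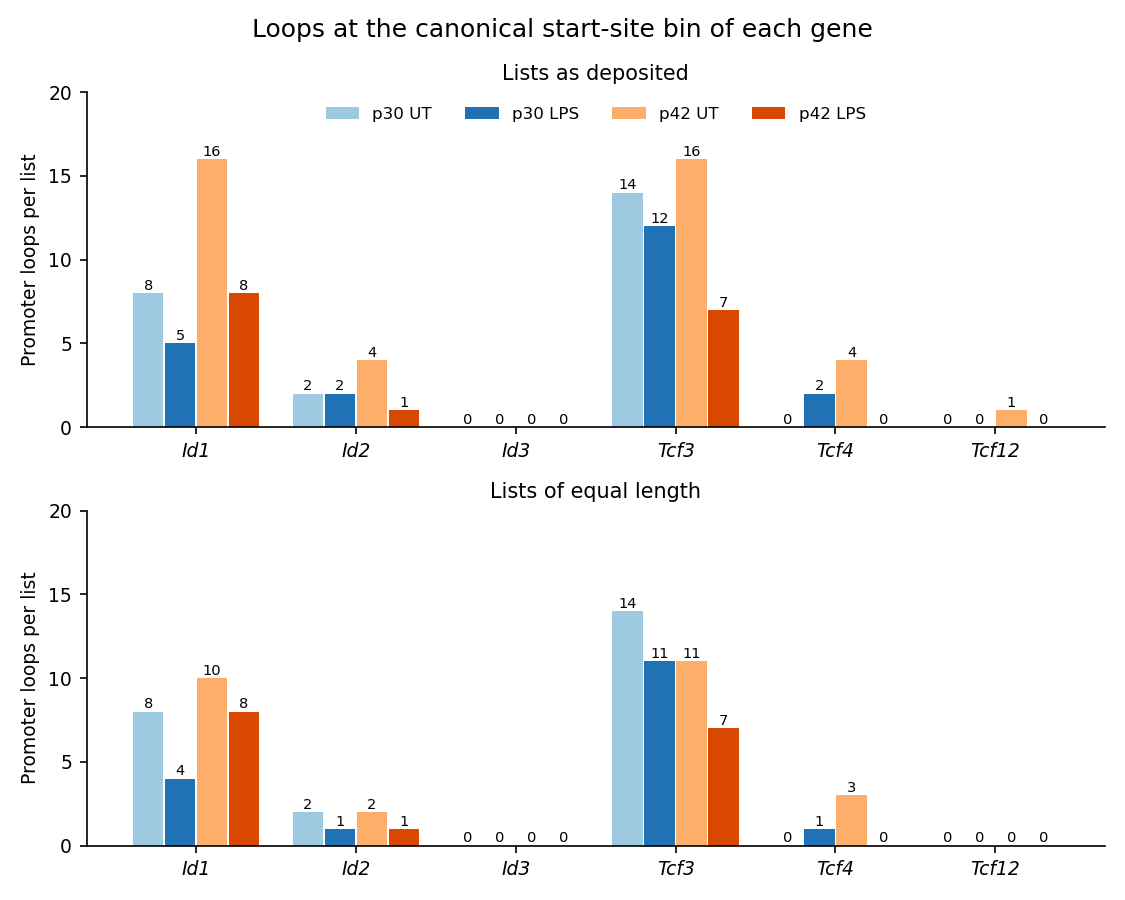
Promoter loops of each gene (y axis, loops per list) in the 4 groups, as deposited (top) and with every list trimmed to 78591 loops (bottom). Bars are counts from one pooled list each and have no error bar. Id1 had 16 loops in p42 UT as deposited and 10 at equal length, Tcf3 had 14 in p30 UT at both lengths, and Id3 had 0 in every list.

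The promoter loops led to 51 different partner bins, 17 for Id1, 6 for Id2, 22 for Tcf3, 5 for Tcf4 and 1 for Tcf12. Of these loops 9 (17.6%) were in all 4 lists, 24 (47.1%) were in 1 list and 15 (29.4%) in p42 UT alone, near the 14.5%, 50.5% and 28.7% of all 214313 different loops. In lists of equal length 6 of 39 (15.4%) were in p42 UT alone, beside 10.1% of all 157556 different loops. All but 3 partner bins were H3K27ac peak bins in each list that held them, and 12 held the canonical start site of a protein-coding gene. The p42 lists shared 3 partner bins (5.88%) that were missing from the p30 lists, 2 of Id1 and 1 of Id2, and the reverse held for 0, where 5.53% and 1.58% of all loops were so placed. At equal length 1 of the 3 was left in both p42 lists, that of Id1 at 90 kb, and the others were in p42 LPS alone. This was 1 of 39 (2.56%), a smaller share than the 6771 of all 157556 different loops placed in both p42 lists alone. The reverse held for 0 of the 39 and for 5723 of all loops at this length. A bin missing from a list has an unknown number of contacts, since the lists hold loops with a q-value under 0.01.

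Id1 (chr2:152566218-152579544, plus strand, canonical start site at 152578165) contacted both sides, with 8 partner bins upstream and 9 downstream. The upstream partners lay at 10 to 65 kb, 7 of them within H13, which encodes a signal peptide peptidase, where 2 bins hold the start sites of H13 and of Mcts2. The bin 40 kb upstream, chr2:152535001-152540000 in an H13 exon, had 34 and 44 contacts in p30 cells without and with LPS and 67 and 48 in p42 cells. Its contacts over the caller's expectation were 5.77, 9.70, 8.96 and 8.88. The bins 35 and 30 kb upstream were also in all 4 lists, with 31, 30, 55 and 27 contacts and with 19, 15, 26 and 21. These upstream bins were thus shared by every group, and p42 UT had the most contacts at each.

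The partner 10 kb upstream, chr2:152565001-152570000, had 78 contacts in untreated p42 cells and 55 with LPS and was missing from the p30 lists. This is the bin that holds the upstream Id1 start site whose sequence is printed above. Its contacts over expected were low, 1.69 and 1.80, against a median of 4.54 and 4.56 over all Id1 promoter loops of those lists. The bin itself was covered in all 4 lists, through other loops, at 1.17, 1.01, 1.43 and 1.23 times the mean peak bin.

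Downstream, 6 of the 9 partner bins of Id1 lay in introns of Bcl2l1, which encodes the survival protein BCL-XL, and another held its start site. The bin of the Bcl2l1 start site, chr2:152670001-152675000 at 95 kb, had 25 and 25 contacts with Id1 in p30 cells without and with LPS and 45 and 14 in p42 cells. The corresponding contacts over expected were 10.4, 11.8, 15.5 and 5.82, the highest of any Id1 promoter loop in p30 UT, p30 LPS and p42 UT. The bin 55 kb downstream in a Bcl2l1 intron was listed in p30 UT with 18 contacts, in p42 UT with 27 and in p42 LPS with 16. A bin 90 kb downstream, also intronic, was listed for p42 alone, with 15 contacts without LPS and 11 with it. The farthest partner, at 110 kb in p42 UT with 10 contacts, held the start site of Tpx2, a spindle assembly factor. The 100 kb on each side of Id1 were dense in loops, with 160, 165, 248 and 148 between bins of this window.

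**Figure D2:**
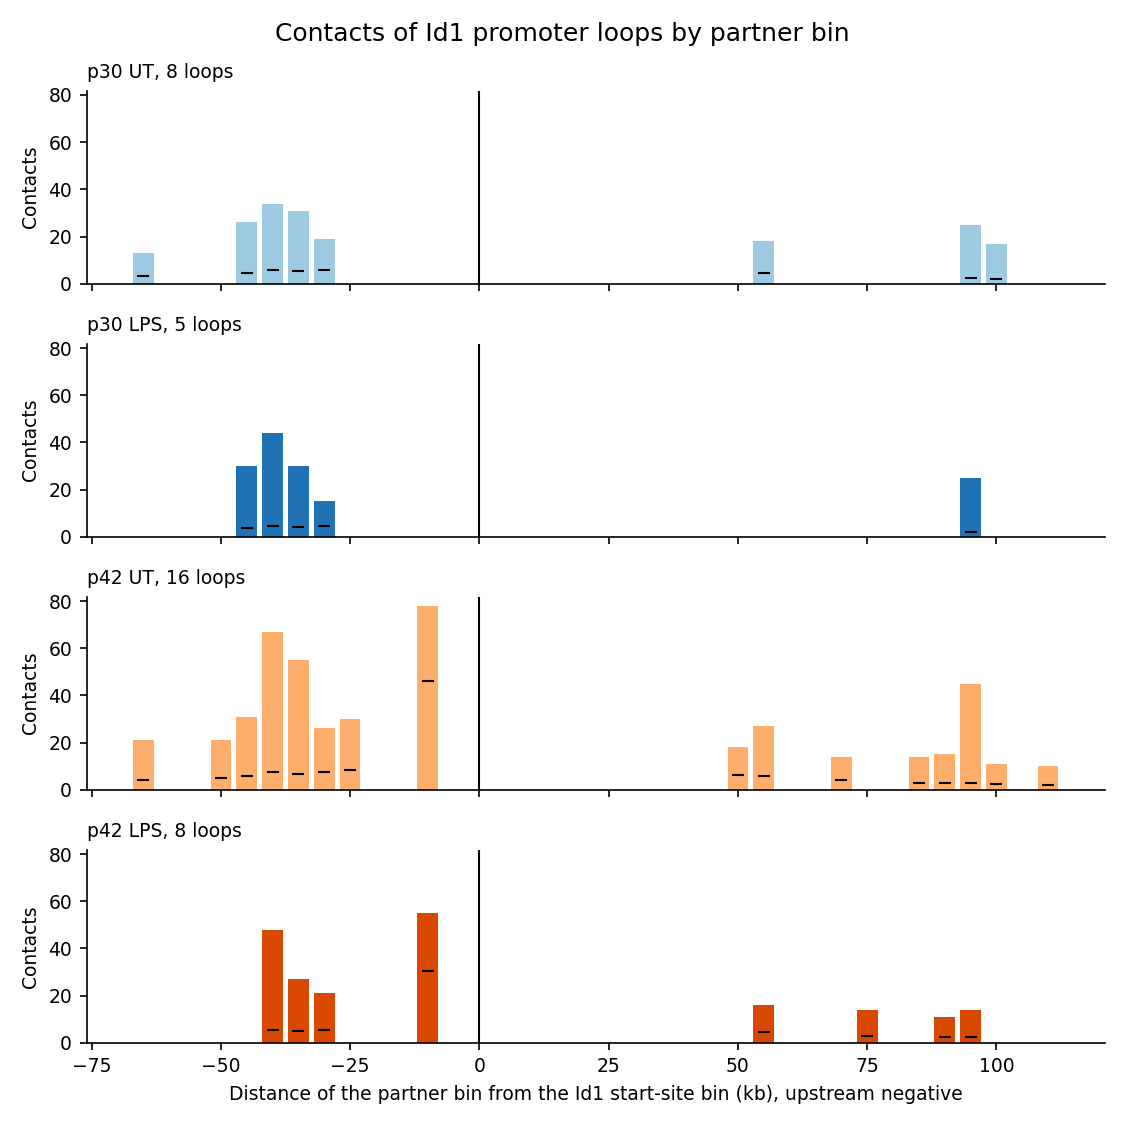
Contacts (y axis) of each Id1 promoter loop by distance of the partner bin (x axis, kb, upstream negative), one panel per pooled list. Bars are contact counts, short black lines are the contacts the caller expected, and the vertical line is the Id1 start-site bin. The cluster at 30 to 40 kb upstream and the bin at 95 kb downstream appear in all 4 panels, and the bin at 10 kb upstream in the p42 panels.

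The coverage of the Id1 start-site bin, the number of reads the caller counted there, was 4667 and 4415 in p30 cells without and with LPS and 8988 and 4498 in p42 cells. Relative to the mean peak bin of each list this was 1.94, 1.97, 3.09 and 2.32. The untreated p42 list stood apart from the other 3 on both scales.

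Id2 (chr12:25143798-25147282, minus strand) had sparse contacts, and all 6 of its partner bins lay upstream, 80 to 170 kb away, within genes annotated as non-coding. The bin 90 kb upstream, chr12:25235001-25240000, had 13 contacts in p30 UT, 10 in p30 LPS and 24 in p42 UT and was not in the p42 LPS list. Its contacts over expected were 7.30, 6.14 and 12.4. The bin 115 kb upstream was listed for p42 alone, with 11 contacts without LPS and 8 with it, the latter being the single Id2 loop of that list. The Id2 start-site bin had a coverage of 1334, 1067, 1482 and 728, or 0.55, 0.48, 0.51 and 0.38 times the mean peak bin, the lowest of the members in each list that gives it. These counts of 8 to 24 contacts leave wide counting intervals.

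Id3 (chr4:135870808-135873066), the inhibitor linked to lymphocyte development, had no promoter loop, and its start-site bin was in no list, so its coverage is unknown. Within 100 kb on each side there were 0, 3, 0 and 1 loops, against 148 to 248 around Id1.

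Tcf3 (chr10:80244046-80269594, minus strand, canonical start site at 80269577) had 22 partner bins, 10 upstream and 12 downstream, and 8 of them held the canonical start site of another gene. The 5 partners found in all 4 lists were all downstream. The bins 10, 15 and 20 kb downstream lay within Tcf3 itself. The nearest, chr10:80255001-80260000, had 114 and 135 contacts in p30 cells without and with LPS and 162 and 97 in p42 cells, the most of any loop of the 6 genes, at 2.17, 2.86, 3.01 and 2.41 times expected. It also holds a second annotated Tcf3 start site. The bin 25 kb downstream, with the start site of Uqcr11, a subunit of respiratory complex III, had 53, 44, 81 and 46 contacts. The bin 30 kb downstream, with the start site of Mbd3, a subunit of the NuRD chromatin remodeller, had 50, 51, 51 and 37. The Mbd3 partner was nearly level in the first 3 lists, and p42 LPS had the fewest contacts with it.

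Beyond these neighbours Tcf3 contacted other genes on both sides, at distances of up to 265 kb. The bin at 130 kb upstream, with the start site of Rexo1, had 18 contacts in p30 UT, 23 in p30 LPS and 14 in p42 UT, at 7.12, 10.1 and 5.50 times expected. The bin at 165 kb downstream, with the start site of Dazap1, an RNA-binding protein gene, had 13, 11 and 15 in the same lists. Neither was in the p42 LPS list. That list held 1 upstream partner, at 265 kb in a Mob3a exon with 9 contacts, while p30 UT had 3, p30 LPS 4 and p42 UT 6, none of them this bin. Partners holding the start sites of Klf16, a KLF-family factor gene, and of Atp8b3 were in p30 LPS alone, each with 12 contacts.

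**Figure D3:**
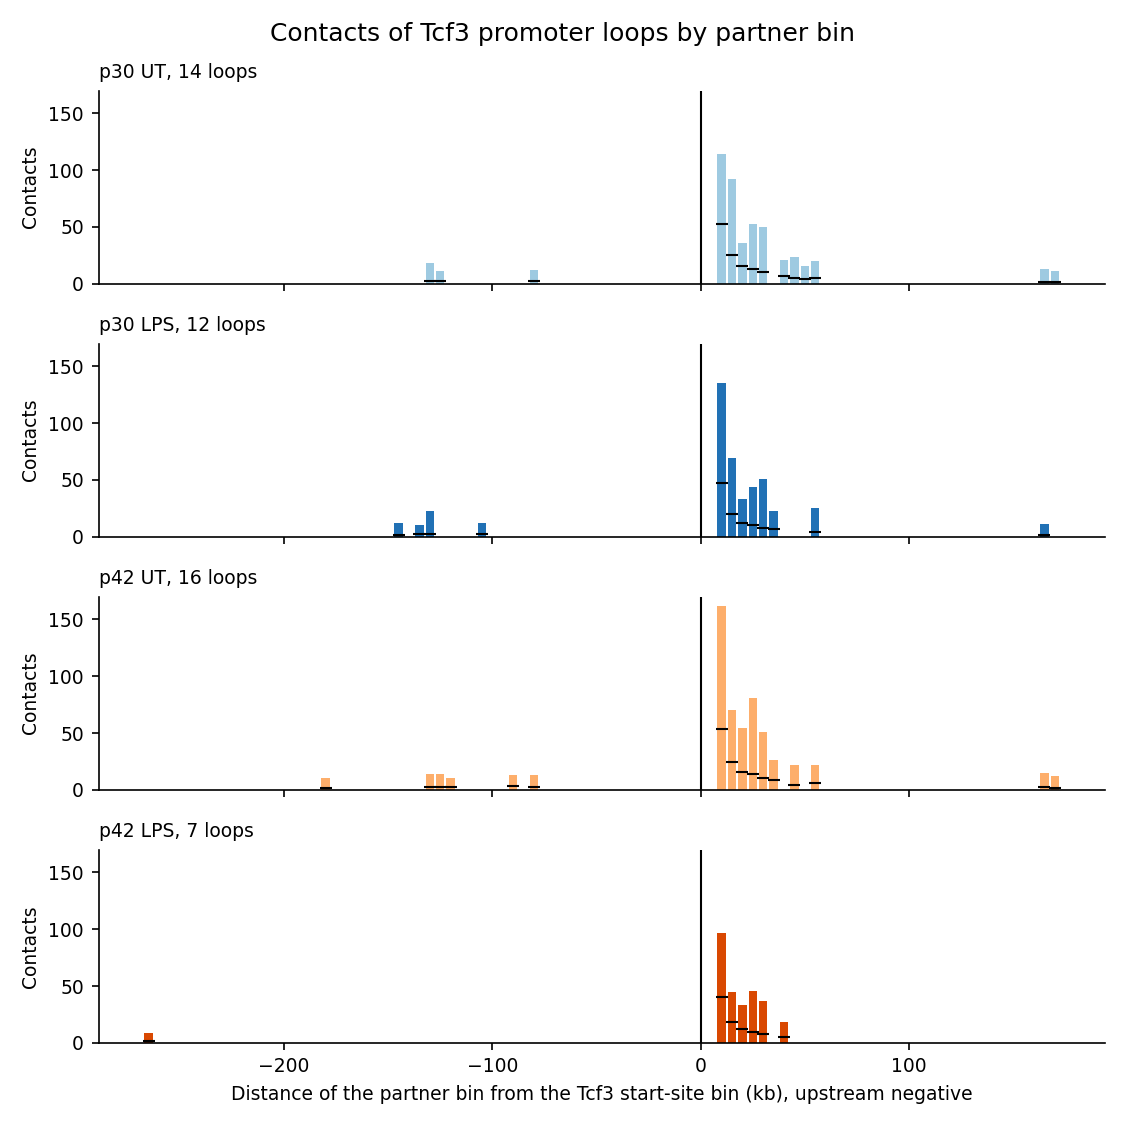
Contacts (y axis) of each Tcf3 promoter loop by distance of the partner bin (x axis, kb, upstream negative), one panel per pooled list. Bars are contact counts, short black lines are the contacts the caller expected, and the vertical line is the Tcf3 start-site bin. Contacts at 10 to 30 kb downstream appear in all 4 panels, and the panel of p42 LPS holds 7 loops against 12 to 16 in the others.

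The Tcf3 start-site bin had the highest coverage of the members in every list, 9008 and 9220 in p30 cells without and with LPS and 9513 and 5245 in p42 cells. Relative to the mean peak bin this was 3.74, 4.12, 3.27 and 2.71. Bins are all 5 kb, so these levels can be set beside those of Id1 and Id2, but they follow acetylation and fragment yield together.

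Tcf4 and Tcf12 had few promoter loops at their canonical start sites, and both had more at other annotated start sites. Tcf4 (chr18:69476427-69822150, plus strand) spans 70 bins, and 9 of them hold a start site of a protein-coding transcript. The canonical bin had loops in p30 LPS and p42 UT, where its coverage was 2942 and 3486. All 5 partners lay downstream inside Tcf4, and the one at 70 kb was in both lists, with 11 and 23 contacts. The start-site bin 250 kb downstream, by contrast, had 2 and 3 loops in p30 cells without and with LPS and 5 and 3 in p42 cells. It had 2, 3, 2 and 3 with lists of equal length. Its loop to the bin 70 kb further downstream was in every list, with 17, 11, 27 and 22 contacts at 6.86, 4.75, 9.50 and 9.51 times expected. Over the whole gene 6, 11, 40 and 9 loops had a bin in Tcf4, and each of them ended inside the gene at both sides. With lists of equal length these were 6, 7, 13 and 9, so that p42 UT stayed highest by a smaller margin.

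The canonical Tcf12 transcript (start site chr9:71803678, minus strand) is a short one that begins within the gene (chr9:71749970-72019177). Its bin had 1 loop, in p42 UT, to an intronic bin 55 kb upstream with 14 contacts at 4.18 times expected. The start-site bin 215 kb upstream, at the 5′ end of the gene, had 3 and 4 loops in p30 cells without and with LPS and 3 and 2 in p42 cells, or 2, 3, 3 and 2 with lists of equal length. Its loop to the bin 25 kb further upstream, outside any protein-coding gene, was in every list, with 44, 46, 42 and 28 contacts at 8.26, 9.38, 6.94 and 5.71 times expected. Another loop, to the bin 20 kb upstream, had 22, 27, 26 and 29 contacts. The upstream promoter thus had loops in all 4 groups, and its relative coverage was 1.04, 1.28, 1.21 and 1.21. Gene-wide, 11, 12, 23 and 8 loops had a bin in Tcf12, or 10, 11, 11 and 8 with lists of equal length. This use of other start sites was chosen after the values were seen.

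**Figure D4:**
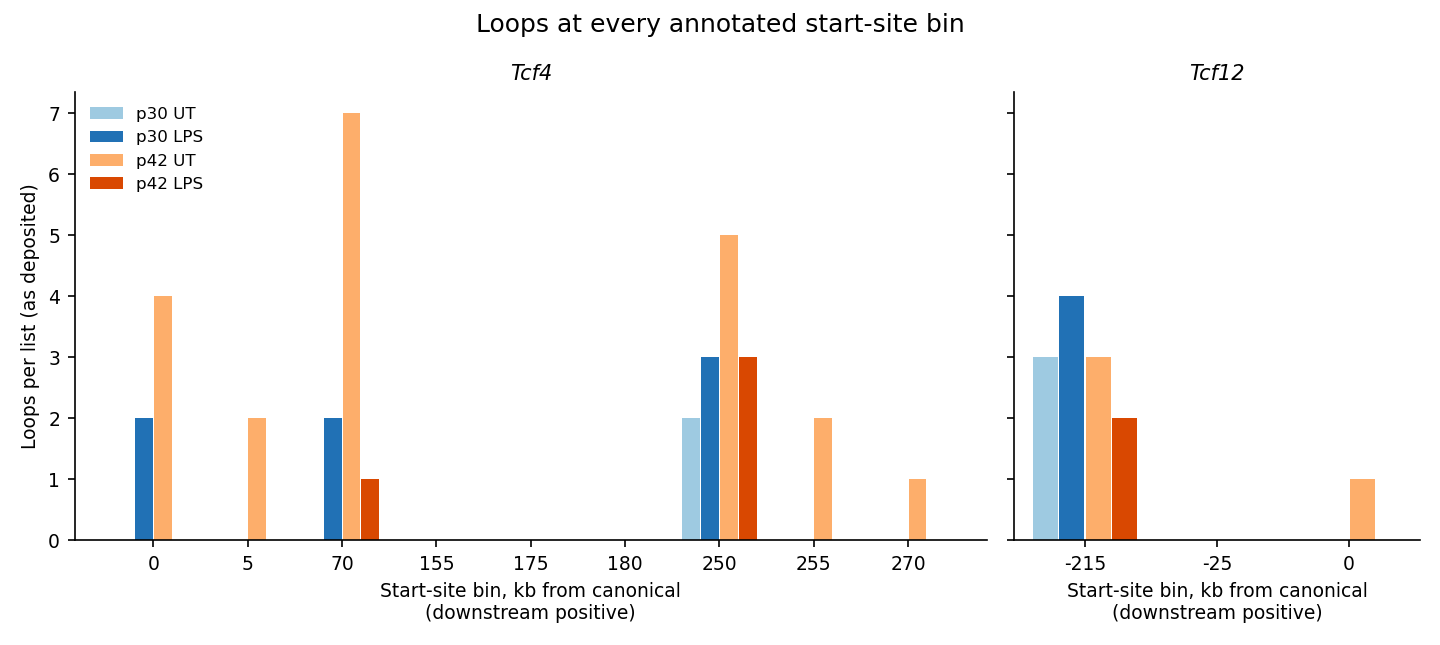
Loops per deposited list (y axis) at each annotated start-site bin of Tcf4 (left) and Tcf12 (right), placed by distance from the canonical one (x axis, kb, downstream positive, not to scale). Bars are counts from one pooled list each. The bins at 250 kb in Tcf4 and at 215 kb upstream in Tcf12 had loops in all 4 lists, and the canonical bins did not.

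Each comparison below sets one list against another in 3 ways. Loop counts met the rule when they differed by at least 1.5-fold and at least 3 loops, start-site coverage when its value relative to the mean peak bin differed by at least 1.5-fold, and contacts of loops in both lists were set against the ratio of modelled contacts with a two-sided exact binomial test, adjusted by Benjamini-Hochberg over all shared loops. That test compares libraries, not conditions. The intervals are Wilson 95% intervals of counting error and hold no replicate error.

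The first comparison asked how the isoform bears on these promoters without stimulation. Untreated, p42 had more promoter loops than p30 at 5 of the 5 genes with loops, where 81.9% of all genes with a loop in either list had more and 8.26% fewer, and 2 met the rule, Id1 with 16 against 8 and Tcf4 with 4 against 0. Over the same genes 42.6% met it in this direction and 0.562% in the other, and the median gene had 2 more loops in p42, as had the median member. In lists of equal length p42 had more at 2 genes, fewer at 1 and the same number at 1, where 41.7% of all genes had more and 37.7% fewer, and Tcf4 met the rule with 3 against 0, against a background of 10.2% for p42 and 6.02% for p30. Start-site coverage was higher in p42 for Id1, at 3.09 against 1.94 (1.59-fold), where 3.84% of start-site bins passed in this direction and 1.28% in the other. Coverage of Id2 and Tcf3 differed by 0.92-fold and 0.87-fold, and the log2 ratio of Id2 turned from -0.12 to 0.07 when coverage was taken per modelled contact. Contacts at the 8 Id1 loops in both lists summed to 283 in p42 and 183 in p30, a log2 ratio per modelled contact of 0.55 (0.28 to 0.82), above the median of 0.20 for all 59069 shared loops, and 0.31 (0.04 to 0.57) when set against the caller's expected contacts, which follow bin coverage. At the 12 shared Tcf3 loops the sums were 530 and 454 and the log2 ratio was 0.14 (-0.04 to 0.32), or 0.21 (0.03 to 0.39) against expected contacts. None of the 21 shared loops of the members passed the exact binomial test, where 5.09% of all shared loops did, although 6 had an unadjusted p under 0.05 and the smallest adjusted p was 0.052, for the Id1 loop 40 kb upstream with 67 against 34 contacts.

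The same comparison was made after LPS. Here p42 had more loops at Id1, 8 against 5, and fewer at 3 genes, and both Id1 and Tcf3, with 7 against 12, met the rule. Of all genes with a loop in either list 23.6% had more in p42 and 58.7% fewer. Over all genes 3.65% met the rule in the direction of Id1 and 17.7% in that of Tcf3, and the median gene had 1 fewer in p42, the median member 1.5 fewer. The Id1 call was lost with loops of at least 20 kb, where p42 had 2 more, with a q-value under 0.001, where it had 1 more, and with 1 bin added on each side, and with every annotated start site Id1 had fewer in p42, at -1. In lists of equal length both Id1, with 8 against 4, and Tcf3, with 7 against 11, met the rule in the same directions, where 6.17% and 11.0% of genes did. Tcf3 coverage was 2.71 against 4.12, 0.66-fold, where 3.79% of bins passed with p30 higher and 1.75% with p42 higher. Id1 coverage was 2.32 against 1.97, but its log2 ratio turned from 0.23 to -0.10 when coverage was taken per modelled contact. Id2 coverage was 0.38 against 0.48, a log2 ratio of -0.34 that became -0.68 per modelled contact, past 1.5-fold. That change of scale moves every peak bin of the comparison by the same amount, and the share of bins then passing is not given here. Contacts at the 5 shared Tcf3 loops summed to 258 in p42 and 332 in p30, a log2 ratio of -0.49 (-0.72 to -0.26) against a median of -0.13 for all shared loops. Without the loops at 10 and 15 kb, which lie inside Tcf3, it was -0.27 (-0.63 to 0.09), and the loop at 25 kb had 46 and 44 contacts. Set against expected contacts, the ratio over all 5 was -0.22 (-0.45 to 0.01). The 4 shared Id1 loops had 110 and 114 contacts. None of 9 shared loops passed the exact test, where 1.59% of all shared loops did, 2 had an unadjusted p under 0.05, and the smallest adjusted p was 0.078, for the Tcf3 loop at 10 kb with 97 against 135 contacts.

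Comparing LPS with UT in p30 cells asked how cells with the short isoform respond. The LPS list had more loops at Tcf4, 2 against 0, the same number at Id2 and fewer at Id1 and Tcf3, and Id1 met the rule with 5 against 8. Of all genes with a loop in either list 53.1% had more in LPS and 27.6% fewer. The median difference was 1 for these genes and -1 for the members. Across all genes 14.1% met the rule with more in LPS and 3.55% with more in UT, so that Id1 lay in the less common direction. In lists of equal length Id1 again met it, with 4 against 8, where 8.39% of genes met it with more in LPS and 6.31% with more in UT. The Id1 difference was -2 with a q-value under 0.001 or with adjacent partners merged, -3 with every start site and -4 with 1 bin added on each side, and it did not meet the rule in these. The 5 Id1 loops in both lists had 144 contacts with LPS and 135 without, a log2 ratio per modelled contact of 0.40 (0.06 to 0.74), or 0.19 (-0.15 to 0.52) relative to the median shared loop. The contacts of the 3 Id1 loops listed without LPS alone are unknown with it. At the 8 shared Tcf3 loops the contacts were 391 and 396 with a log2 ratio of 0.29 (0.09 to 0.49), close to the median of 0.22 for all shared loops. No start-site bin of Id1, Id2 or Tcf3 passed 1.5-fold, where 1.97% of bins did so with LPS higher and 0.321% with UT higher. None of 14 shared loops passed the exact test, where 2.20% of all did, 2 had an unadjusted p under 0.05, and the smallest adjusted p was 0.089.

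In p42 cells LPS went with fewer loops at 5 of the 5 genes, where 87.3% of all genes had fewer and 4.51% more, and 4 met the rule, Id1 with 8 against 16, Id2 with 1 against 4, Tcf3 with 7 against 16 and Tcf4 with 0 against 4. Over all genes 47.1% met it with fewer in LPS and 0.0903% with more, and the median gene had 3 fewer. At equal length 4 of 4 genes had fewer in LPS, where 46.5% of all genes had fewer and 31.8% more, and Tcf3 with 7 against 11 and Tcf4 with 0 against 3 met the rule, where 9.36% of genes met it with fewer in LPS and 3.92% with more. Contacts per modelled contact were lower at each of the 13 shared loops of the members, with a median log2 ratio of -0.37 against -0.13 for all 59847 shared loops. These loops start from the bins of Id1, Id2 and Tcf3, and loops of one bin share its coverage, so they are not independent cases. The 7 shared Id1 loops had 192 contacts with LPS and 313 without, a log2 ratio of -0.44 (-0.70 to -0.18), and the 5 shared Tcf3 loops had 258 and 418, -0.43 (-0.66 to -0.21). The loop from Id1 to the Bcl2l1 start site differed most, with 14 against 45 contacts, a log2 ratio of -1.42 and the smallest adjusted p of the members, 0.058 in the exact binomial test. None of the 13 passed it, where 1.47% of all shared loops did, and 4 had an unadjusted p under 0.05. Relative coverage was 0.75-fold for Id1, 0.74-fold for Id2 and 0.83-fold for Tcf3, and none passed 1.5-fold, where 1.12% of bins did so with UT higher and 0.699% with LPS higher. Per modelled contact all 3 passed it, with log2 ratios of -0.74, -0.76 and -0.60. Going from one scale to the other moves every peak bin of a comparison by the same amount. The median start-site bin was at -0.14 on the relative scale, and the share of bins passing per modelled contact is not given here. Coverage was thus lower together with the contacts, and set against expected contacts, which follow coverage, the log2 ratio of contacts was -0.19 (-0.45 to 0.07) for Id1 and -0.28 (-0.50 to -0.05) for Tcf3. The comparisons of p42 with p30 and of LPS with UT share lists, so they are not independent of each other.

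**Figure D5:**
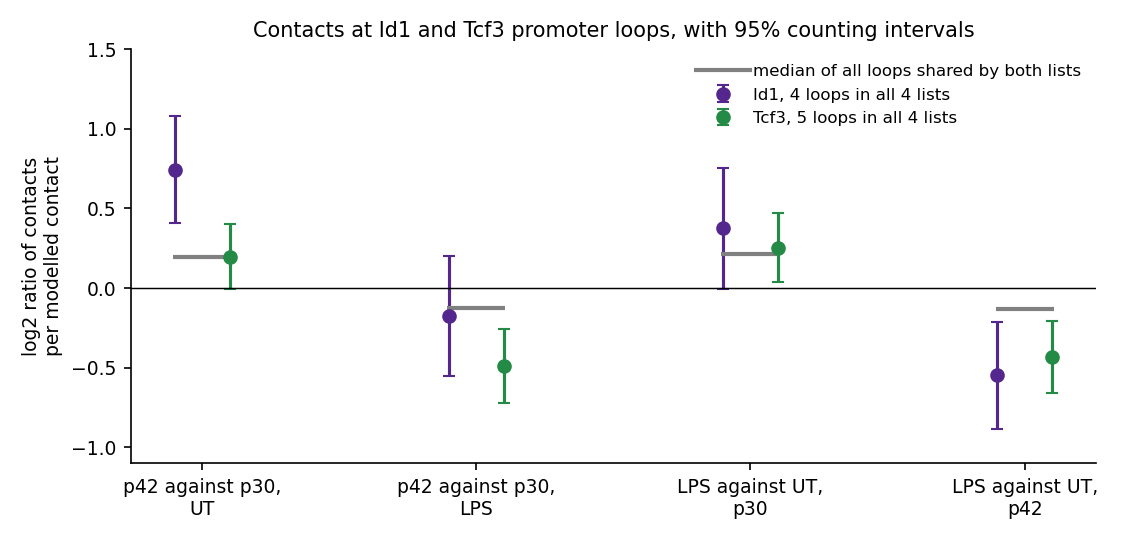
Log2 ratio of contacts per modelled contact (y axis) at the Id1 and Tcf3 promoter loops found in all 4 lists, for each comparison (x axis). Points are ratios of summed contacts, error bars are Wilson 95% intervals of counting error, and grey lines are the median of all loops shared by both lists. Id1 lies at 0.74 for p42 against p30 in UT and at -0.55 for LPS against UT in p42, and Tcf3 at -0.49 for p42 against p30 in LPS.

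Genes that act around the circuit were described by the same counts. Of 18 partners and cofactors of E proteins, 9 had a promoter loop in some list. Among these, Tal1, Lyl1 and Ldb1, which form DNA-binding complexes with E proteins in progenitors, met the rule with more in p42 UT than in p30 UT, and 0 with fewer. Lyl1 had 13 and 17 loops in p30 cells without and with LPS and 22 and 14 in p42 cells. After LPS 4 cofactors met the rule with fewer in p42, Ldb1, Cbfa2t3, Ssbp3 and Ssbp4. Cbfa2t3, a corepressor of E protein targets, had 9, 6, 10 and 2. At equal length Lyl1 had 13, 14, 12 and 14 and Cbfa2t3 had 9, 4, 4 and 2, so that p42 UT was highest for neither. In p30 it was the single cofactor meeting the rule, with fewer in LPS, and in p42 6 met it with fewer in LPS. Lmo2, the bridging factor of these complexes, had 13, 12, 18 and 15 and met the rule in no comparison. The median differences of the listed genes with loops, p42 minus p30 in UT and in LPS and LPS minus UT in p30 and in p42, were 4, -3, -0.5 and -6 loops, beside 2, -1, 1 and -3 for all genes. With lists of equal length 0 cofactors met the rule with more in any of the 4 comparisons, and 1, 3, 1 and 1 met it with fewer.

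Of 16 genes of the BMP and TGF-beta pathway, which acts upstream of Id genes, 9 had a promoter loop. The receptors Tgfbr1 and Tgfbr2 and the signal transducer Smad3 met the rule with more in p42 UT than in p30 UT. Tgfbr1 had 9, 8, 21 and 8 loops and Tgfbr2 had 5, 10, 17 and 9. At equal length Tgfbr2 had 5, 9, 5 and 9, so that it met the rule with more in LPS in p42, opposite to the deposited lists. In p30, Tgfbr2 met the rule with more in LPS, and after LPS Bmpr2, a BMP receptor, met it with fewer in p42. The inhibitory Smad6 had 16, 10, 16 and 8 loops, and Smad7 had 4, 1, 4 and 0. Both met the rule with fewer in LPS in p30 and in p42, and 4 other genes did so in p42. At equal length Smad6 had 16, 9, 8 and 8 and Smad7 had 4, 0, 0 and 0, so that neither met it with LPS in p42. The genes that met it there with fewer in LPS were Bmpr2, with 0 against 3, and Tgfbr1, with 8 against 13. Smad1, which carries BMP signals to Id genes, had 0 in each list. The median differences were 1, -1.5, 0 and -5 loops. With lists of equal length 0, 0, 1 and 1 genes met the rule with more and 2, 1, 2 and 2 with fewer.

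Of 13 E protein targets of lymphoid progenitors that could be matched, out of 14, 6 had a promoter loop. Igll1, the surrogate light chain gene of early B cells, had 1 loop in p30 UT, p30 LPS and p42 LPS and 6 in p42 UT, and in the deposited lists it was the single gene of this list to meet the rule, in both comparisons that use p42 UT. The median differences were 0.5, 0, 0 and -2 loops. At equal length Igll1 had 1, 1, 5 and 1 and met the rule in the same comparisons. There Cd79a, with 3, 2, 0 and 2, and Ccr9, with 3, 4, 0 and 3, met it in the opposite direction between the untreated lists, as did Ccr9 for LPS against UT in p42. The shares of all genes given above are the background for these counts too.

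The genes on other chromosomes whose loop counts were most like those of a member were found by the distance between log2 counts over the 4 lists. Nearest to Id1 were Slc25a28, Znrf1 and Hhex among 5868 genes, and Slc25a28, a mitochondrial iron transporter gene, had 8, 5, 18 and 7 loops. Nearest to Id2 were Mfap2, Lat and Braf among 6175, with the same counts as Id2 in each list. Nearest to Tcf3 were Tspan32, Emp3 and Odad1 among 6038, and Tspan32 had 14, 12, 14 and 7. Emp3 and Odad1 start in one bin and so share their counts.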

How the data were processed

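H3K27ac HiChIP had been made from HPC-7 cells with p30 or p42, UT or LPS, in 8 libraries. Per the labels, the authors aligned reads with BWA 0.7.17 to mm39 (GRCm39), and they called loops at 5 kb with FitHiChIP on the pooled libraries of each group. All 21 chromosome names of the lists are in GRCm39 and the last bins lie within their lengths. The lists hold no replicate columns, and how libraries were pooled is not given in the sources used here. The deposited lists give contacts and bin coverage as counts, the authors' coverage bias as a ratio to the mean of peak (or other) bins, the caller's expected contacts as a signal, contact probability as a fraction, and q-values, all under 0.01. From these, modelled contacts were computed by dividing expected contacts by probability, and mean peak coverage by dividing coverage by bias. Loops were assigned by GENCODE M39 canonical start sites.

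Promoter loops, relative coverage and contacts at shared loops were compared between lists in Python 3.11.15 with scipy 1.17.1, pandas 2.3.3 and numpy 2.4.6, by the exact binomial test with Benjamini-Hochberg adjustment, after checking the counting and the test on simulated data. Contacts are the depth behind each value. HiChIP contacts carry no molecular identifiers, so intervals cover counting error only. Other columns of the lists, such as p-values, were not used. The members and gene lists were chosen with earlier results of these data known. Named genes were the 6 members, the nearest 3 genes to each member with loops in all lists, genes at partner bins of all lists, and up to 3 rule-meeting genes per network list, with other examples named after their values were seen. Alternatives were equal list lengths, stricter q-values, at least 5 contacts, loops of at least 20 kb, neighbouring bins, all start sites, merged partners and other scalings. Taking the median shared loop as the centre was chosen after seeing the data.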

Additional observations from a re-analysis of the deposited data

Results flagged for a closer look

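For Id1 and Tcf3 the contacts at shared loops, for Tcf3 the start-site coverage, and for Tcf4 the promoter loops, had opposite directions with LPS in p30 and p42, and since each group is one pooled list, none of these differences was tested. At the 4 Id1 promoter loops found in all lists, the log2 ratio of contacts per modelled contact, LPS over UT, was 0.37 (-0.00 to 0.75) for p30 and -0.55 (-0.88 to -0.21) for p42, which differ by -0.92, and the interval in p30 includes 0. At the 5 such Tcf3 loops it was 0.25 (0.04 to 0.47) and -0.43 (-0.66 to -0.21), a difference of -0.69. The median of all shared loops had the same pair of directions, 0.22 in p30 and -0.13 in p42. The promoter loops of both genes did not oppose, with 3 fewer for Id1 and 2 fewer for Tcf3 with LPS in p30, and 8 and 9 fewer in p42. The relative coverage of the Id1 start-site bin had log2 ratios of 0.02 and -0.41, a difference of -0.44, but the value in p30 is near 0, below the 0.045 of the median start-site bin, and the coverage before scaling was lower with LPS in p30 too, 4415 against 4667. The relative coverage of the Tcf3 bin had log2 ratios of 0.14 and -0.27, a difference of -0.41. The median start-site bin had the same pair of directions, 0.045 and -0.14. Tcf4 had 2 more promoter loops with LPS in p30 and 4 fewer in p42, a difference of -6, or -4 with lists of equal length. The median gene with a loop in either list also had 1 more in p30 and 3 fewer in p42 in the deposited lists. At equal length its difference was 0 in both.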

How the results depend on the processing

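No paired analysis was possible because the deposited lists pool both replicates of a group, and for the same reason no replicate could be left out. With lists of equal length, members with more promoter loops in p42 UT than in p30 UT came to 2 in place of 5, and those with fewer to 1 in place of 0. Over all genes the rule was then met by 914 in place of 4321 with more in p42 UT and 539 in place of 57 with more in p30 UT, by 545 in place of 334 with more in p42 LPS and 968 in place of 1621 with more in p30 LPS, by 757 in place of 1311 with more in LPS and 569 in place of 331 with more in UT in p30, and by 340 in place of 9 and 812 in place of 4696 in p42. Fewer loops entered these lists by construction. With every annotated start site, after LPS the members with more in p42 came to 0 in place of 1 and those with fewer to 5 in place of 3, and Id1 turned from 3 more in p42 to -1. In p30, members with more loops in LPS came to 2 in place of 1 with a q-value under 0.001, with 1 bin on each side, with every start site and with adjacent partners merged, and those with fewer to 1 in place of 2 with the first, second and last of these. The Tcf3 log2 ratio of contacts, p42 against p30 in LPS, was -0.22 with expected counts and -0.27 (-0.63 to 0.09) with loops of at least 20 kb. Relative to the median shared loop, it was -0.052 for p42 against p30 in UT and 0.075 for LPS against UT in p30. The cause of these differences was not tested. The loop rule was no longer met under at least 1 alternative by Id1 in each of the 4 comparisons and by Id2 for LPS against UT in p42, and it was newly met by Id2 and Tcf3 for p42 against p30 in UT and by Tcf4 for LPS against UT in p30. The Id1 difference between untreated lists was 2 with lists of equal length. Start-site coverage per modelled contact newly passed 1.5-fold for Id1, Id2 and Tcf3 for LPS against UT in p42 and for Id2 for p42 against p30 in LPS. That scaling moves every peak bin of a comparison by the same amount, and the share of all start-site bins passing on it is not given here. The Id1 log2 ratio of contacts, LPS against UT in p42, was -0.19 (-0.45 to 0.07) with expected counts. Counts of 8 to 24 contacts limit Id2, Tcf4 and Tcf12.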

Other observations

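Start sites of Id1 and Tcf3 other than the canonical ones also carried loops in every list. The Id1 bin 5 kb upstream had 3 and 5 loops in p30 cells without and with LPS and 5 and 1 in p42 cells, and the bin 10 kb upstream had 5, 3, 6 and 4. In lists of equal length these were 3, 4, 2 and 1, and 5, 2, 5 and 4. The Tcf3 bin 10 kb downstream had 3, 4, 6 and 2, or 3, 3, 4 and 2 at equal length, and its relative coverage was 2.04, 2.14, 1.98 and 1.94. In Tcf12, an intronic bin 65 kb upstream of the canonical start site had 1 or 2 loops in each list. Its relative coverage was 3.38 and 4.91 in p30 cells without and with LPS and 5.72 and 3.82 in p42 cells. That ratio is to the mean of peak bins, or of other bins where a bin holds no peak. Which applies to this bin is not given here, so its values cannot be set beside those of peak bins. The bin 195 kb upstream had 2, 1, 9 and 1 loops, or 2, 1, 3 and 1 with lists of equal length. In Tcf4, the bin 320 kb downstream of the canonical start site had 1, 2, 9 and 1, or 1, 1, 4 and 1. These bins were picked after their values were seen, and no test was made.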
